A study of Homo sapiens with 8 samples.

Results

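The genes described here encode the subunits of the proteasome, its assembly chaperones, its activators and the regulator PI31. They were chosen by symbol, as every listed gene whose name is PSM followed by a letter from A to G and a number, which gave 48 of the 23686 genes in the files. No expression value entered this rule, though the members were chosen with earlier results of these data known. Of the 48 genes, 46 had enough reads to be tested. The other two, PSMA8, a core subunit of male germ cells, and PSMB11, the catalytic subunit of the thymus, had 0 counts in all 8 libraries.

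The proteasome is the protease that degrades most ubiquitin-tagged proteins in the cytosol and nucleus. Its barrel-shaped core particle is built of α and β rings, and the β subunits PSMB5, PSMB6 and PSMB7 carry the cutting sites. A regulatory particle, made of a base with ATPases and a lid that removes ubiquitin, caps the core and feeds substrates into it. Cells exposed to interferon also make PSMB8, PSMB9 and PSMB10, which replace the ordinary cutting subunits and give the immunoproteasome. Transcription of many proteasome genes is known to be raised by the factors NFE2L1 and NFE2L2 when proteasome activity falls or oxidants accumulate.

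RNA was sequenced from the human breast cancer lines Hs578T and MDA-MB-231, both of the triple-negative class, with and without depletion of GPX1, a glutathione peroxidase that removes hydrogen peroxide. Each of the 4 groups, which are Hs578T control, Hs578T siGPX1, MDA-MB-231 control and MDA-MB-231 siGPX1, held 2 libraries. The titles name the depleted samples siGpx1 and their genotype tag reads Gpx1-/-, while the sources used here give neither the kind of control, nor the number of siRNAs, nor the time after transfection. Nothing in the labels says that replicates were separate cultures, so the spread behind each p-value is that of the libraries at hand and may be technical. The data come from whole cultures, in which fewer cells expressing a gene and less of its RNA per cell cannot be told apart.

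GPX1 had 1117 and 1074 counts in the Hs578T controls against 42 and 42 after depletion, and 2944 and 3223 in the MDA-MB-231 controls against 108 and 95. In every library GPX1 therefore matched the depletion stated in the label. The libraries held 12905808 to 14216365 expected counts, and 14249 genes were tested. Within the Hs578T siGPX1 group the libraries were the least alike, at a chi-square of 4.05 per gene where the other groups had 1.36 to 1.97. The samples are labelled epithelial. EPCAM, a defining epithelial gene, had at most 2 counts in each Hs578T library and 304 to 366 in each MDA-MB-231 library, and CDH1 reached at most 3 and 28 counts. KRT18, a keratin of simple epithelia, was present in both lines, at 321 to 322 TPM (transcript counts per length, scaled to a fixed library total) in the Hs578T controls and 898 to 1001 after depletion. The summed level of 5 epithelial markers went from 347 and 350.0 to 934 and 1032 TPM in Hs578T and from 1761 and 1741 to 2747 and 2817 in MDA-MB-231. That of 4 mesenchymal markers went from 17189 and 16915 to 22331 and 20261 TPM and from 2396 and 2446 to 3105 and 3073. The epithelial sum in Hs578T came mostly from KRT18, and the mesenchymal sums came mostly from FN1 and VIM. FN1, VIM and CDH2 were higher after depletion in each line. In MDA-MB-231, however, CDH2 had only 13 and 11 counts in the controls and 17 and 28 after depletion. ZEB1 was lower, from 47.4 and 48.1 to 41.0 and 36.4 TPM in Hs578T and from 41.3 and 40.0 to 36.9 and 35.0 in MDA-MB-231. Of 12 leukocyte markers, 5 to 8 were at 0 counts in each library. The pan-leukocyte gene PTPRC had at most 5 counts and the T cell gene CD3E 0. The summed leukocyte marker level was 71.1 to 102.0 TPM in Hs578T and 167 to 181 in MDA-MB-231. It came mostly from CD68, a lysosomal protein also made outside the blood lineage, which went from 93.7 and 91.6 to 61.3 and 66.6 TPM after depletion in Hs578T. The part of these shifts in the results below was not tested.

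After GPX1 depletion in Hs578T, 10 of the 46 tested proteasome genes rose and 20 fell. Among all tested genes 28.6% rose and 22.1% fell, against 21.7% and 43.5% of the proteasome genes. In MDA-MB-231, 6 rose and 18 fell, which is 13.0% and 39.1%, where 20.7% and 21.9% of all tested genes did so. The median log2 change was -0.08 in Hs578T and -0.09 in MDA-MB-231, beside 0.04 and 0.00 over all tested genes. The gene with the largest rise in both lines was PSMD3, a scaffold subunit of the lid, and the one with the largest fall was PSMD10 (gankyrin), a chaperone of base assembly that is not part of the finished particle. Here and below, a gene rose or fell where edgeR's quasi-likelihood test gave a Benjamini-Hochberg adjusted p under 0.05 over all 14249 genes. Most of the changes were small, and PSMD3 alone rose by more than 1.5-fold in either line. Falls of more than 1.5-fold were those of PSMD10, PSMD1, PSMD11 and PSMB1 in Hs578T and of PSMD10 and PSMD11 in MDA-MB-231. With only the Hs578T libraries in the fit, 5 members rose there, beside 24.11% of all genes tested in that fit. PSMB3, PSMB5, PSMD6, PSME3 and PSMF1 then missed the threshold. With a stricter filter on low counts, the MDA-MB-231 counts were 9 that rose and 16 that fell, where 30.63% and 21.34% of all genes tested under that filter did so. With DESeq2, PSMB3 and PSMG4 missed the threshold in Hs578T and PSMA7, PSMD4, PSMD9, PSMD14 and PSMG1 in MDA-MB-231. Members that did not pass but did so under at least 1 alternative were PSMA5, PSMB4, PSMB6 and PSMB9 in Hs578T and PSMB4, PSMB9, PSMB10, PSMC4, PSMD2, PSMD5 and PSMF1 in MDA-MB-231.

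**Figure D1:**
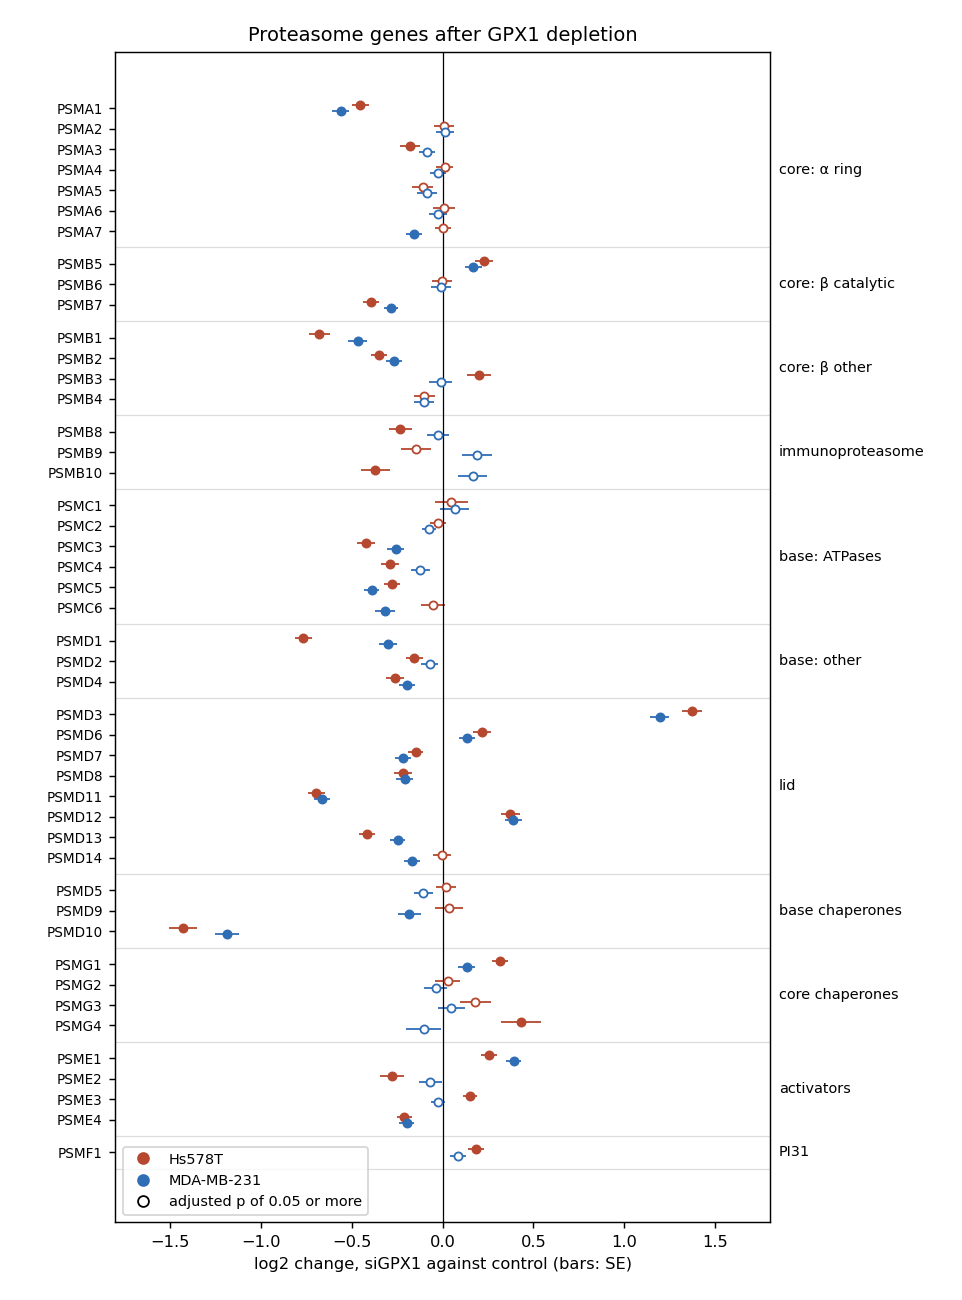
Log2 change after GPX1 depletion for the 46 tested proteasome genes (x axis, siGPX1 against control in the same line), grouped by role (y axis), with Hs578T in red and MDA-MB-231 in blue. Points are edgeR estimates from 2 libraries a group, bars their standard errors, and open points had an adjusted p of 0.05 or more. PSMD3 stands at 1.37 and 1.2, PSMD10 at -1.43 and -1.18, and the remaining points lie between -0.77 and 0.43.

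The α ring of the core changed little except for PSMA1. PSMA1, an α subunit, had 408 and 413 TPM in the Hs578T controls and 288 and 310.0 after depletion, and 486 and 465 TPM in the MDA-MB-231 controls against 318 and 343. All 4 siGPX1 libraries lay below all 4 controls. The log2 change was -0.45 ± 0.05 (SE) in Hs578T and -0.56 ± 0.05 in MDA-MB-231. PSMA3 fell in Hs578T (-0.18 ± 0.05) and PSMA7 in MDA-MB-231 (-0.16 ± 0.04), and neither passed in the other line, where their changes were -0.09 and 0.00. PSMA3 missed the threshold without Hs578T control replicate 2 or siGPX1 replicate 1 (adjusted p of up to 0.14), and PSMA7 without any 1 of the MDA-MB-231 libraries (0.125 to 0.229). PSMA2, PSMA4, PSMA5 and PSMA6 passed in neither line, with changes between -0.11 and 0.01. For PSMA2 the 95% interval of the log2 change ran from -0.11 to 0.12 in Hs578T and from -0.09 to 0.11 in MDA-MB-231.

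Of the β subunits with no cutting site, PSMB1 and PSMB2 fell in both lines. PSMB1 had 463 and 453 TPM in the Hs578T controls against 257 and 294 after depletion, and 767 and 825 TPM in the MDA-MB-231 controls against 570.1 and 589. The depleted libraries were the lower ones in each line, with no overlap, and the log2 change was -0.68 ± 0.06 and -0.47 ± 0.05. PSMB2 fell by 0.35 and 0.27 on the log2 scale. PSMB3 rose in Hs578T by 0.20 ± 0.06, but its depleted libraries, at 332 and 388 TPM, barely cleared the controls at 328 and 323. The rise of PSMB3 missed the threshold when any of 7 single libraries was left out (adjusted p 0.0737 to 0.357 by edgeR's quasi-likelihood test), the exception being Hs578T siGPX1 replicate 1. In MDA-MB-231 its log2 change was -0.01. PSMB4 passed in neither line (-0.10 in both).

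The cutting subunits of the ordinary core moved apart. PSMB5, the chymotrypsin-like subunit, had 205 and 207 TPM in the Hs578T controls and 220.1 and 239 after depletion, and 289.9 and 307 TPM in the MDA-MB-231 controls against 334 and 340.1. It was higher in every depleted library than in the controls of its line, and it rose by 0.23 ± 0.05 and 0.17 ± 0.05 on the log2 scale. PSMB7, the trypsin-like subunit, went the other way. Its level was 476 and 482 TPM in the Hs578T controls against 340.0 and 363 after depletion, and 643 and 652 TPM in the MDA-MB-231 controls against 542 and 527. The groups did not overlap in either line, and PSMB7 fell by 0.39 and 0.28 on the log2 scale (SE 0.04 in both). PSMB6, the caspase-like subunit, had 417 and 409 TPM in the Hs578T controls, 370.2 and 422 after depletion, 387 and 401 in the MDA-MB-231 controls and 389 and 397 after depletion. These groups overlapped in both lines, and the 95% interval of its log2 change was -0.12 to 0.11 in Hs578T and -0.13 to 0.11 in MDA-MB-231. With only the Hs578T libraries in the fit, the rise of PSMB5 there had an adjusted p of 0.0536.

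All 3 immunoproteasome subunits were measured in every library, at lower levels than the subunits they replace. PSMB8, which replaces PSMB5, had 162 and 161 TPM in the Hs578T controls, 121 and 141 after depletion, 183 and 181 in the MDA-MB-231 controls and 179 and 185 after depletion. PSMB10, which replaces PSMB7, had 72.3 and 72.6 TPM, then 54.4 and 53.6, in Hs578T, and 58.5 and 57.0, then 69.7 and 60.4, in MDA-MB-231. PSMB9, which replaces PSMB6, had 106 and 109 TPM, then 85.9 and 101, in Hs578T, and 84.4 and 79.8, then 88.5 and 99.9, in MDA-MB-231. For PSMB9 and PSMB10 the depleted libraries were the lower ones in Hs578T and the higher ones in MDA-MB-231, without overlap, while for PSMB8 the groups overlapped in MDA-MB-231. PSMB8 and PSMB10 fell in Hs578T by 0.23 ± 0.06 and 0.37 ± 0.08 on the log2 scale. None of the 3 passed in MDA-MB-231, where the log2 changes of PSMB8, PSMB9 and PSMB10 were -0.02, 0.19 and 0.17 (adjusted p = 0.792, 0.087 and 0.112 by the same test). The change of PSMB10 differed between the lines, by 0.54 ± 0.11 (adjusted p = 0.00443 by edgeR's quasi-likelihood test). For PSMB9 the difference was 0.33 and for PSMB8 0.21, and neither passed (adjusted p = 0.067 and 0.124). Under alternatives some of these passed. PSMB9 was higher in MDA-MB-231 in 6 of them, 3 without a library (lowest adjusted p 0.0194), PSMB10 in 2 (0.0146), and the difference between the lines passed in 5 for PSMB9 (0.00365) and 2 for PSMB8 (0.00752).

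**Figure D2:**
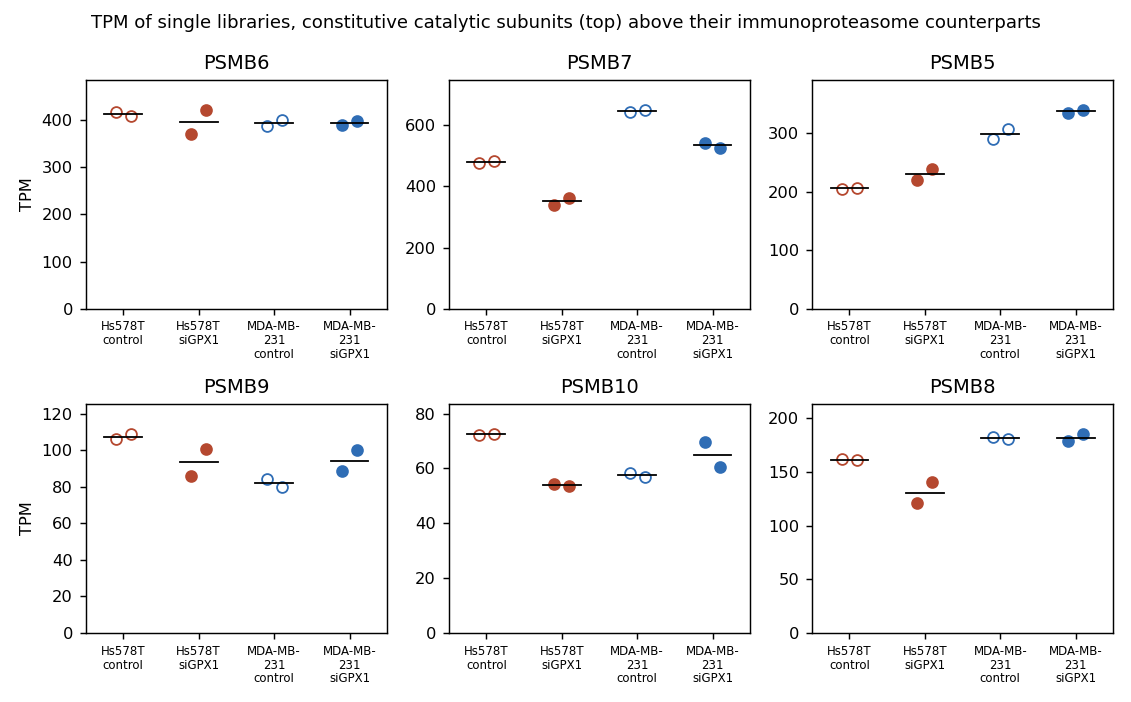
TPM (y axis, from 0) of the ordinary cutting subunits PSMB6, PSMB7 and PSMB5 in the upper panels and of the immunoproteasome subunits that replace them in the lower panels, in the 4 groups (x axis). Each point is 1 library and each bar the mean of 2, with open points for control. PSMB10 fell from 72.3 and 72.6 to 54.4 and 53.6 TPM in Hs578T, while in MDA-MB-231 its depleted libraries stood at 69.7 and 60.4 above controls at 58.5 and 57.0.

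Since PSMB8 fell where PSMB5 rose, the share of PSMB8 in their summed TPM was lower in every depleted library of Hs578T. It was 44.1 and 43.8% in the controls and 35.4 and 37.1% after depletion, and in MDA-MB-231 it was 38.7 and 37.1% against 34.9 and 35.3%. The groups did not overlap in either line, but an exact permutation test of 2 libraries against 2 cannot give a two-sided p below 0.333. The share of all 3 immunoproteasome subunits in the TPM of the 6 cutting subunits went from 23.7 and 23.8% to 21.9 and 22.4% in Hs578T. In MDA-MB-231 it went from 19.8 and 18.9% to 21.0 and 21.5%. It was thus lower after depletion in Hs578T and higher in MDA-MB-231.

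The ATPases of the base, which unfold substrates, held 3 falls in each line and 0 rises. PSMC3 fell by 0.42 ± 0.05 in Hs578T and 0.26 ± 0.04 in MDA-MB-231 on the log2 scale, and PSMC5 by 0.28 ± 0.04 and 0.39 ± 0.04. PSMC4 fell in Hs578T (-0.29 ± 0.05) and did not pass in MDA-MB-231 (-0.12, adjusted p = 0.0692), and the difference between the lines did not pass (adjusted p = 0.14, same test). PSMC6 fell in MDA-MB-231, from 113 and 112 to 93.6 and 88.5 TPM, a log2 change of -0.32 ± 0.06. In Hs578T it had 58.6 and 59.4 TPM in the controls and 55.2 and 54.4 after depletion (-0.05, adjusted p = 0.54), and its difference between the lines had an adjusted p of 0.0505 by the same test. PSMC1 and PSMC2 passed in neither line, with changes between -0.08 and 0.07.

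All 3 members among the non-ATPase subunits of the base were lower after depletion in Hs578T. PSMD1, the large scaffold of the base, had 263 and 259 TPM in the Hs578T controls and 141 and 154 after depletion, and 171 and 168 in the MDA-MB-231 controls against 134 and 144. The fall separated the groups in both lines, and it was larger in Hs578T (-0.77 ± 0.05, 1.70-fold) than in MDA-MB-231 (-0.30 ± 0.05, 1.23-fold). The difference of 0.47 ± 0.07 on the log2 scale passed the test (adjusted p = 0.000206). In TPM the depleted libraries of the lines overlapped, from controls that were higher in Hs578T. TPM does not carry the scaling factors of the test (TMM). These were 0.893 and 0.908 in depleted Hs578T and 1.09 and 1.09 in depleted MDA-MB-231, so the overlap in TPM does not show an equal level. PSMD4, a ubiquitin receptor, fell in both lines (-0.26 ± 0.05 and -0.20 ± 0.04), though in MDA-MB-231 not when any 1 of its 4 libraries was left out. PSMD2, which docks ubiquitin-carrying shuttle proteins, fell in Hs578T by 0.16 ± 0.05 and had -0.07 in MDA-MB-231. Without Hs578T control replicate 2 or siGPX1 replicate 1 the fall of PSMD2 had an adjusted p of 0.0552 to 0.0576.

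The lid held both the largest rise and several of the larger falls. PSMD3 had 85.4 and 87.0 TPM in the Hs578T controls and 202 and 228 after depletion. In MDA-MB-231 it had 111 and 110.5 TPM in the controls and 254 and 256 after depletion. All 4 depleted libraries stood above all 4 controls. The rise was 2.59-fold in Hs578T (log2 change 1.37 ± 0.06, adjusted p = 1.71e-11 by edgeR's quasi-likelihood test) and 2.29-fold in MDA-MB-231 (1.2 ± 0.05, 7.39e-11). The difference between the lines was -0.18 and did not pass (adjusted p = 0.136).

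Within the same lid, PSMD12 and PSMD6, which share its scaffold role, rose by less. PSMD12 had 121 and 113 TPM in the Hs578T controls and 146 and 146 after depletion, and 177 and 161 in the MDA-MB-231 controls against 220.2 and 225. Its depleted libraries lay above the controls of their line, with log2 changes of 0.37 ± 0.05 and 0.39 ± 0.05. PSMD6 rose by 0.22 ± 0.05 and 0.14 ± 0.05, the smaller of which missed the threshold without MDA-MB-231 siGPX1 replicate 2 (adjusted p = 0.0788). PSMD11, the lid subunit that clamps the regulatory particle to the core, went down. It had 93.1 and 96.3 TPM in the Hs578T controls against 54.2 and 58.3 after depletion, and 147 and 149 in the MDA-MB-231 controls against 92.8 and 95.6. In TPM, though not on the scale of the test, the depleted MDA-MB-231 libraries thus stood at the level of the Hs578T controls. Within each line the groups were far apart, with log2 changes of -0.69 ± 0.05 and -0.66 ± 0.04.

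PSMD13, PSMD8 and PSMD7, further lid subunits, fell by 0.41, 0.22 and 0.15 on the log2 scale in Hs578T. In MDA-MB-231 they fell by 0.25, 0.21 and 0.22. PSMD7 is the partner of PSMD14, the lid enzyme that cuts ubiquitin off the substrate. PSMD14 fell in MDA-MB-231 (-0.17 ± 0.04) and had a change of 0.00 in Hs578T, and the difference of -0.17 did not pass (adjusted p = 0.0961). In MDA-MB-231 the fall of PSMD14 missed the threshold without any 1 of the 4 MDA-MB-231 libraries (adjusted p 0.0508 to 0.359), that of PSMD7 without control replicate 1 or siGPX1 replicate 2 (up to 0.0839), and that of PSMD8 without control replicate 2 or siGPX1 replicate 1 (up to 0.143). In Hs578T the fall of PSMD7 had an adjusted p of 0.0725 without control replicate 2.

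**Figure D3:**
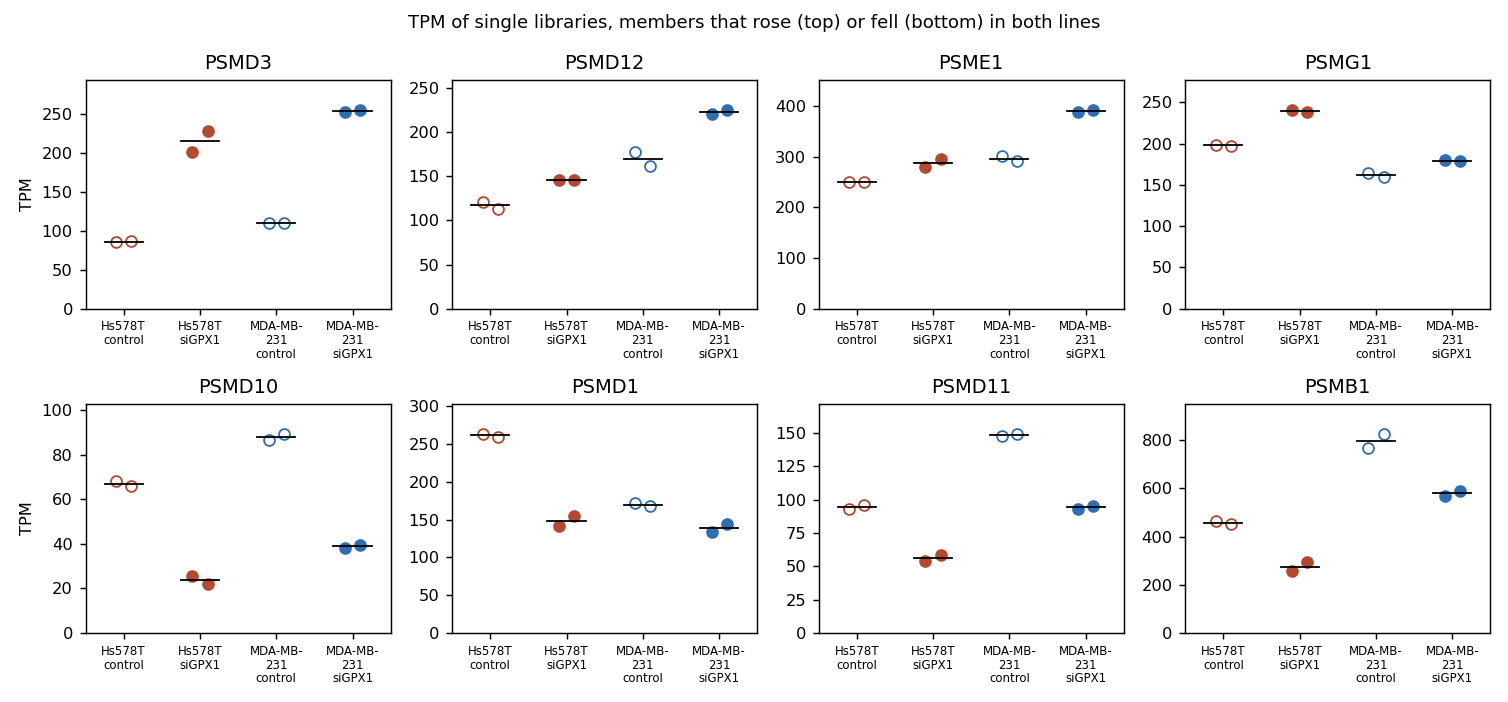
TPM (y axis, from 0) of 4 genes that rose in both lines, PSMD3, PSMD12, PSME1 and PSMG1 (top), and of 4 that fell in both, PSMD10, PSMD1, PSMD11 and PSMB1 (bottom), in the 4 groups (x axis). Each point is 1 library and each bar the mean of 2, with open points for control. In each panel the depleted libraries of a line lie apart from its controls, as for PSMD10 at 25.8 and 22.2 against 68.0 and 65.9 TPM in Hs578T.

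The chaperones that assemble the base did not move together. PSMD10 (gankyrin), which holds the ATPase PSMC4 during assembly and is known as an oncoprotein of liver cancer, had 68.0 and 65.9 TPM in the Hs578T controls and 25.8 and 22.2 after depletion. In MDA-MB-231 it had 86.7 and 89.3 TPM in the controls and 38.3 and 39.3 after depletion. All 4 depleted libraries stood below all 4 controls. The fall was 2.69-fold in Hs578T (log2 change -1.43 ± 0.08, adjusted p = 5.44e-10 by edgeR's quasi-likelihood test) and 2.27-fold in MDA-MB-231 (-1.18 ± 0.07, 1.23e-09), a difference that did not pass (0.24, adjusted p = 0.136). PSMD5 and PSMD9, the other base chaperones, had log2 changes of 0.02 and 0.03 in Hs578T. PSMD9 passed in MDA-MB-231 (-0.18 ± 0.06), but not without any 1 of the 4 libraries of that line or without Hs578T control replicate 2 (adjusted p 0.0533 to 0.45). PSMD5 had -0.10 there and did not pass.

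Of the chaperones that assemble the core, PSMG1 rose in both lines. PSMG1, which starts the α ring as a dimer with PSMG2, had 198 and 198 TPM in the Hs578T controls and 241 and 239 after depletion, and 164 and 159.8 in the MDA-MB-231 controls against 180.0 and 179. The groups did not overlap, and the log2 changes were 0.32 ± 0.05 and 0.13 ± 0.05. The smaller one missed the threshold without MDA-MB-231 control replicate 2 or siGPX1 replicate 1 (adjusted p of up to 0.0598). PSMG2, its partner, passed in neither line (0.03 and -0.04). PSMG4, which pairs with PSMG3, had the lowest level of the tested members in the controls of both lines. It rose in Hs578T from 27.3 and 28.8 to 37.9 and 36.8 TPM (log2 change 0.43 ± 0.11) and had 48.4 and 52.6 against 48.4 and 43.8 in MDA-MB-231, where the groups overlapped (-0.10). The rise missed the threshold with DESeq2 (adjusted p = 0.0784). The difference of -0.53 ± 0.15 passed (adjusted p = 0.0217). Without Hs578T control replicate 1, or without any 1 of the MDA-MB-231 libraries, it did not (0.0693 to 0.193, same test). PSMG3 had 0.18 and 0.05 and passed in neither line. PSMG3 and PSMD6 have antisense genes listed beside them, and since the use of strand in counting is not given, reads from each pair cannot be told apart.

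Among the alternative activators, the partners PSME1 and PSME2 differed in direction in Hs578T. They form 1 ring that opens the core without ubiquitin and is known to be raised by interferon. PSME1 had 251 and 250.4 TPM in the Hs578T controls and 280.5 and 296 after depletion, and 302 and 291 in the MDA-MB-231 controls against 388 and 393. It was higher in all depleted libraries of each line, with log2 changes of 0.25 ± 0.04 and 0.39 ± 0.04. PSME2 had 208 and 209 TPM in the Hs578T controls and 158 and 173 after depletion, and 186 and 197 in the MDA-MB-231 controls against 183 and 185. It fell in Hs578T (-0.28 ± 0.06) and did not pass in MDA-MB-231 (-0.07, adjusted p = 0.438 by edgeR's quasi-likelihood test). PSME4, the activator of the nucleus known as PA200, fell by 0.21 and 0.20 on the log2 scale, the latter missing the threshold without MDA-MB-231 control replicate 1 or siGPX1 replicate 2 (adjusted p of up to 0.092).

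PSME3, a nuclear activator, rose in Hs578T by 0.15 ± 0.04 and had -0.02 in MDA-MB-231. The difference of -0.18 ± 0.05 passed (adjusted p = 0.0334), but in only 1 of 8 fits without a library, the one without Hs578T siGPX1 replicate 1 (0.0822 to 0.678 in the others). The rise in Hs578T itself had an adjusted p of 0.0531 to 0.0544 without any 1 of the MDA-MB-231 libraries. PSMF1, the regulator PI31, rose in Hs578T by 0.18 ± 0.04 and had 0.09 in MDA-MB-231. Its adjusted p was 0.0609 without Hs578T control replicate 1.

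Across the 46 tested members, the log2 changes in Hs578T and MDA-MB-231 had a Pearson correlation of 0.883, against 0.425 across all 14249 genes; genes are not independent replicates, and PSMD3 and PSMD10 lie far from the rest. These comparisons share no library. In both lines, 6 members rose (PSMD3, PSMD12, PSME1, PSMG1, PSMB5 and PSMD6), 14 fell, and 0 passed in opposite directions. These are 13.04% and 30.43% of the members, where 14.93% and 14.27% of all tested genes rose or fell in both lines and 1.54% passed in opposite directions. The 14 that fell were PSMD10, PSMD1, PSMD11, PSMB1, PSMA1, PSMC3, PSMD13, PSMB7, PSMB2, PSMC5, PSMD4, PSMD8, PSME4 and PSMD7. A further 12 members passed in neither line. The test of the difference between the lines passed for 4 members, with PSMD1 and PSMB10 higher and PSMG4 and PSME3 lower in MDA-MB-231 than in Hs578T, where 6.32% and 10.7% of all tested genes did so.

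The count of members whose change differed between the lines depended on the settings of the fit. It was 8 with DESeq2 size factors (7 higher, 1 lower), where 8.78% of all tested genes were higher and 7.01% lower. It was 13 with a stricter filter on low counts (13 higher, 0 lower), where these shares were 14.12% and 6.68%. It was 14 without Hs578T siGPX1 replicate 2 (13 higher, beside 6.76% of all tested genes) and 8 without Hs578T siGPX1 replicate 1 (6 lower, beside 10.84%). PSMD1 and PSMB10 passed in every one of these fits.

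**Figure D4:**
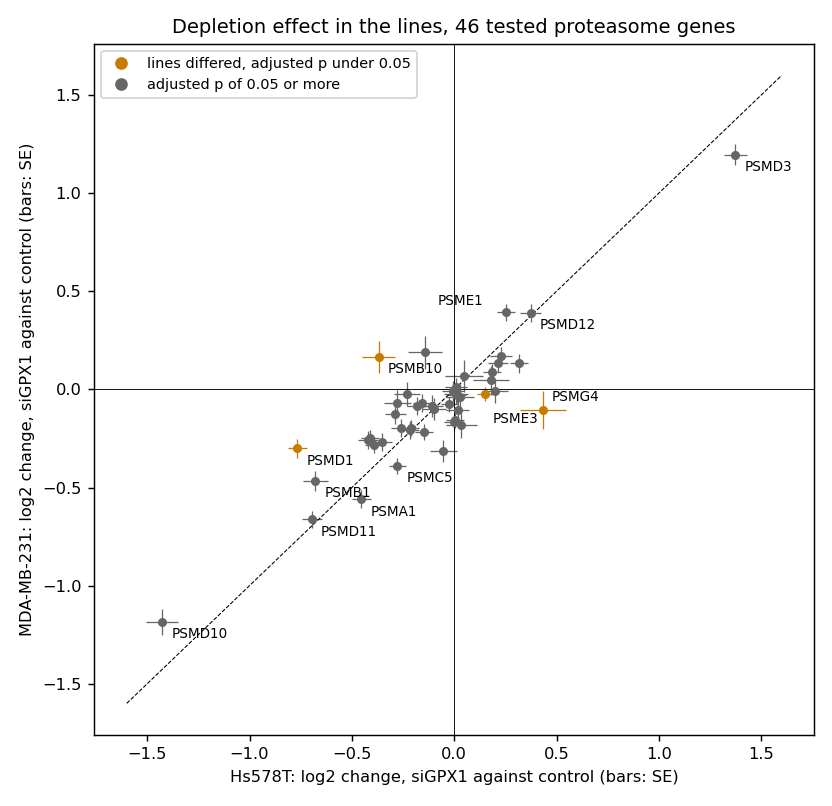
Log2 change after GPX1 depletion in Hs578T (x axis) against that in MDA-MB-231 (y axis) for the 46 tested members, with standard errors as bars and the dashed line marking equal change. Orange points are the 4 members whose change differed between the lines at an adjusted p under 0.05. PSMD3 and PSMD10 lie at the ends, and PSMD1 lies above the line with -0.77 in Hs578T and -0.30 in MDA-MB-231.

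Each particle had a lower summed TPM after depletion, although the median over regulatory subunits, set there by a different gene, was higher in MDA-MB-231. TPM is scaled to a fixed total, so these sums are not on the scale of the test. In Hs578T the mean TPM of PSMA2 went from 158 to 154 and that of PSMA6 from 205 to 199, while both had log2 changes of 0.01 in the test. The 14 genes of the core particle, without the immunoproteasome subunits and PSMA8, summed to 4689 and 4758 TPM in the Hs578T controls and 3940 and 4359 after depletion. In MDA-MB-231 the sums were 6221 and 6305 TPM in the controls and 5605 and 5679 after depletion. The 17 genes of the regulatory particle summed to 3540 and 3589 TPM, then 3006 and 3215, in Hs578T, and to 4100 and 4126, then 3827 and 3898, in MDA-MB-231. The depleted libraries had the lower sums of both particles in both lines, with no overlap. The median TPM over the subunits of the regulatory particle was also lower in Hs578T (188.0 and 200.3 against 168.0 and 159.5). In MDA-MB-231 it was higher, at 204 and 198 in the controls against 220.2 and 225 after depletion. This median was the value of PSMD7 in those controls and of PSMD12 after depletion, so its rise came with a change of gene. By the test in MDA-MB-231, 3 ATPases, 2 other base subunits and 5 lid subunits fell, and 3 lid subunits rose. The sum of the lid alone was 1750.2 and 1738 TPM in the MDA-MB-231 controls and 1758 and 1793 after depletion. That sum includes PSMD3, which went from 111 and 110.5 to 254 and 256 TPM. The median over the core subunits was lower in both lines, from 303 and 303 to 260.0 and 286 TPM and from 417 and 415 to 377 and 391. All members together made up 0.983 and 0.996% of TPM in the Hs578T controls against 0.847 and 0.916% after depletion, and 1.217 and 1.227% against 1.131 and 1.149% in MDA-MB-231.

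Promoter sequences are shown for the 4 members that rose in both lines and hold the core of the antioxidant response element, the site that NFE2L2 and NFE2L1 are known to bind, and for PSMD10 as the member with the largest fall. The windows run from 250 bases before to 50 after the annotated start, in RefSeq on GRCh38.p14, and are written 5′ to 3′ on the strand of the gene. The capitals mark every match to TGACNNNGC (N is any base) and to CCAAT, the box bound by NF-Y, on either strand, so that a match on the other strand appears as the reverse complement. PSMD3 lies at chr17:39980557-39980856 (plus strand), PSMD12 at chr17:67366528-67366827 (minus), PSME1 at chr14:24135944-24136243 (plus), PSMG1 at chr21:39183402-39183701 (minus) and PSMD10 at chrX:108091493-108091792 (minus).
PSMD3: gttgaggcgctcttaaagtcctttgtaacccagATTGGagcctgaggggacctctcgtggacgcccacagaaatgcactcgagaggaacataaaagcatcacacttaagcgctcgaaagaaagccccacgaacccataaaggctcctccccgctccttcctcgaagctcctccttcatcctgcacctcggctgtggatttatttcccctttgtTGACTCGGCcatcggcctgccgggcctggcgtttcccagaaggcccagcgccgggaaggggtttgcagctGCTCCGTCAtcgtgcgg
PSMD12: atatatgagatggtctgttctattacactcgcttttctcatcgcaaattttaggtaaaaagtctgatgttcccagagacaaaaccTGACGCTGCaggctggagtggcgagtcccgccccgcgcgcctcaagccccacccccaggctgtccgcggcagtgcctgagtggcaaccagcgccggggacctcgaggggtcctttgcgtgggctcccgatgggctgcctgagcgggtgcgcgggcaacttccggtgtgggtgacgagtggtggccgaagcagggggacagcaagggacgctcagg
PSME1: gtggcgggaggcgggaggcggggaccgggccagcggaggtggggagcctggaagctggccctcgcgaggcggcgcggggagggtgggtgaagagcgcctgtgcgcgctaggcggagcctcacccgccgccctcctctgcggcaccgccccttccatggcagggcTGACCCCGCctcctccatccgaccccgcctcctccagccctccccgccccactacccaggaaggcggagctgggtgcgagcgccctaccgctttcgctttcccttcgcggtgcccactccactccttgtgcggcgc
PSMG1: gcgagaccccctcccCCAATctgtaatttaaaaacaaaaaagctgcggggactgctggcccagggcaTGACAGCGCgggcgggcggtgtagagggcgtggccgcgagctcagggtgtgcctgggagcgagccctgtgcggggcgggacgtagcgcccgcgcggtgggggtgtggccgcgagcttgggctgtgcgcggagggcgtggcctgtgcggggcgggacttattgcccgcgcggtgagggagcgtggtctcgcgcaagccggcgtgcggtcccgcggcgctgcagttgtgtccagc
PSMD10: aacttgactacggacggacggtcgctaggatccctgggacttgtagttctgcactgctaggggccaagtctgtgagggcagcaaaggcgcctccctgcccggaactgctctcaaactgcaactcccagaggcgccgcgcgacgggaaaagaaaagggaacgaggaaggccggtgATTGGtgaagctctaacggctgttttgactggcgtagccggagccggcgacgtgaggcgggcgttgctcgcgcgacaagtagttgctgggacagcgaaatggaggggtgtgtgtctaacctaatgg
PSMD3 holds TGACNNNGC at 2 places, 1 on each strand. Of 42 members with a window, 15 (35.71%) hold TGACNNNGC and 20 (47.62%) hold CCAAT in at least 1 window. Among tested genes with a window these shares were 19.24% and 43.28%, and among all windows of that length 13.35% and 34.61%. TGACNNNGC was found for 4 of the 6 members that rose in both lines, for 3 of 11 with a window that fell in both (PSMC5, PSMD1 and PSME4), and for 4 of 10 that passed in neither. These groups were formed after the calls were known, and a match is a description of letters, not a binding site.

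The 3′ untranslated regions (UTRs) were searched for 4 sequences of 7 bases that had been picked on these same libraries because genes holding them were lower (GGGCATC and GGCATCA) or higher (ACTTCGA and TACTTCG) after depletion. The members' matches are therefore no independent evidence. PSMB2, PSMB7 and PSMD14 held the former and PSMD11 and PSME1 the latter, which is 6.52% and 4.35% of the 46 members, against 13.99% and 2.59% of 13074 tested genes with a UTR to search. The sites are shown with the match in capitals, 5′ to 3′ on the strand of the gene, from GENCODE 29 on GRCh38, as the members that could be counted among such genes.
PSMB2, chr1:35600239-35600267 (minus): tgcatttagctGGGCATCatttttatgcc
PSMB2, chr1:35600513-35600541 (minus): tcagaaacccaGGCATCAtttatttttaa
PSMB7, chr9:124353578-124353597 (minus): atGGCATCAgtgggtggctg
PSMD14, chr2:161411500-161411528 (plus): gtaagacatctGGCATCAtttgcagcact
PSMD11, chr17:32483189-32483217 (plus): acacaaaccagACTTCGAaggcttagtat
PSME1, chr14:24138753-24138781 (plus): catcctgaagaACTTCGAgaagctcaaga
In PSMB2 the first site also holds GGCATCA, 1 base further on. PSMB2 and PSMB7 fell in both lines and PSMD14 in MDA-MB-231. PSME1 rose in both lines, and its site is untranslated in 1 of the 2 transcripts searched and coding in others. PSMD11 holds a sequence of the second kind and fell in both lines. PSMD3, PSMD10, PSMD1 and PSMB1 held none of the 4 sequences.

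Before depletion, more members were higher in MDA-MB-231 than in Hs578T. Between the controls, 25 of 46 tested members were higher in MDA-MB-231 and 10 in Hs578T, 54.3% and 21.7%, where 43.0% and 38.6% of all tested genes were. Other tests, scaling or filters on the counts, a replicate block and a fit of only the groups compared were also run. These gave 20 to 27 members higher in MDA-MB-231 and 9 to 13 in Hs578T. Among all tested genes the shares in these fits were 34.21% to 42.95% and 31.62% to 41.78%. In the fit reported, the median log2 difference, MDA-MB-231 minus Hs578T, was 0.13, beside 0.05 over all tested genes. The largest were those of the α subunit PSMA6 (0.95 ± 0.05), the ATPase PSMC6 (0.80 ± 0.06), the activator PSME3 (0.75 ± 0.04), PSMA3 (0.74 ± 0.05) and PSMD9 (0.73 ± 0.07). PSMA6 had 205 and 206 TPM in the Hs578T controls against 447 and 429.9 in those of MDA-MB-231, with no overlap. It passed in neither depletion comparison, and its depleted libraries, at 187 and 211 TPM and at 424 and 444, kept to the level of their line.

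Higher in Hs578T were PSMD1 (log2 difference -0.76 ± 0.05), PSMB9 (-0.53 ± 0.08), PSMB10 (-0.47 ± 0.08), PSMG1 (-0.42 ± 0.05) and PSMB2 (-0.42 ± 0.04), followed by PSMC4, PSME2, PSMB6, PSMF1 and PSMD13. PSMB8 did not pass between the controls (0.05, adjusted p = 0.47 by edgeR's quasi-likelihood test). The direction for the lowest of these depended on scale. On log2(TPM + 1) with limma, 34 members were higher in MDA-MB-231 and 7 in Hs578T, where 48.57% and 33.61% of all tested genes were. The median of all tested genes moved to 0.17. PSMB6 and PSMF1 then did not pass (adjusted p 0.291 and up to 0.759), and PSMD13 stood at 0.01. Calls of PSMD2, PSMC3, PSMD4 and PSMB4 as higher in MDA-MB-231 were lost without 5 or 6 of the single libraries (adjusted p of up to 0.468, 0.289, 0.229 and 0.321). Other calls were lost without 1 library, namely PSMD3 without MDA-MB-231 control replicate 2 (0.0582) and, without Hs578T control replicate 2, PSMD13 (0.0687) and PSMF1 (0.06). These control libraries are shared with the depletion comparisons.

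**Figure D5:**
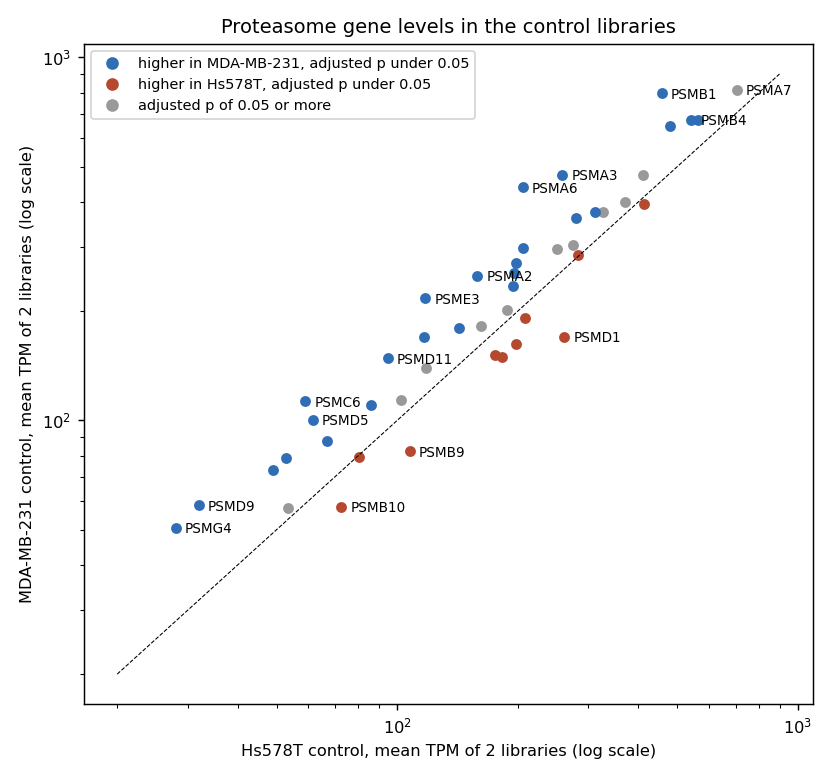
Mean TPM of 2 control libraries in Hs578T (x axis, log scale) and in MDA-MB-231 (y axis, log scale) for the 46 tested members, with the dashed line at equal level. Blue points were higher in MDA-MB-231 and red points in Hs578T by edgeR's test on counts at an adjusted p under 0.05, and grey points did not pass. PSMA7 is the highest in both lines, PSMG4 the lowest, and PSMD1, PSMB9 and PSMB10 lie farthest below the line.

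Levels per length spanned a wide range. PSMA7, an α subunit, was the highest member in the Hs578T controls, with 684 and 721 TPM, and had 811 and 816 in the MDA-MB-231 controls. PSMG4 was the lowest, with 27.3 and 28.8 TPM and 48.4 and 52.6. In the Hs578T controls, PSMD2 (564 ± 4.02, mean ± SD, n = 2) and PSMB4 (542 ± 8.62) followed PSMA7, and PSMB7 and PSMB1 came next at 479 ± 4.60 and 458 ± 6.82. Neighbours such as PSMB6 (413 ± 5.20) and PSMA1 (410.4 ± 3.30), or PSMB5 (206 ± 1.53) and PSMA6 (205 ± 0.276), did not differ beyond the spread of their libraries.

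Of 12 genes for other proteasome parts and associated proteins, 3 rose and 2 fell in Hs578T and 2 rose and 2 fell in MDA-MB-231, with medians of 0.03 and -0.04. All 4 counts lie below the shares of all tested genes, which were 28.6% that rose and 22.1% that fell in Hs578T against 20.7% and 21.9% in MDA-MB-231. These shares also apply to the following lists. ZFAND5, a protein that stimulates the proteasome, rose by 1.22 ± 0.04 and 0.82 ± 0.04 on the log2 scale. AKIRIN2, which carries proteasomes into the nucleus, fell by 0.72 ± 0.08 and 0.97 ± 0.08, and POMP, the maturation factor of the core, fell by 0.23 ± 0.06 and 0.27 ± 0.05. UCHL5, a deubiquitinase bound to the regulatory particle, rose in Hs578T (0.24 ± 0.05). Among 10 genes for shuttle factors, unfoldase and ubiquitin, 2 rose and 4 fell in Hs578T and 2 rose and 5 fell in MDA-MB-231 (medians -0.05 and -0.06). The ubiquitin gene UBB fell by 0.44 ± 0.04 and 0.29 ± 0.04. The shuttle factor RAD23B rose (0.36 and 0.18), and UBQLN4, another shuttle factor, fell (-0.50 and -0.54).

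Of 8 regulators of proteasome genes, 5 rose and 2 fell in Hs578T and 3 rose and 1 fell in MDA-MB-231, with medians of 0.41 and 0.24. STAT3 rose by 1.10 ± 0.04 and 0.53 ± 0.04 on the log2 scale. NGLY1, the glycanase needed to activate NFE2L1, rose by 0.69 ± 0.07 and 0.52 ± 0.07, and MAFG, a dimer partner of NFE2L1 and NFE2L2, by 0.57 ± 0.06 and 0.50 ± 0.06. The other MAF genes of this list did not rise in either line. NFE2L2 RNA rose in Hs578T (0.58 ± 0.04) and had 0.09 in MDA-MB-231 (adjusted p = 0.0571), and NFE2L1 RNA rose in Hs578T by 0.18 ± 0.03 and had 0.03 in MDA-MB-231. These are RNA levels, and both factors are known to be controlled chiefly as proteins. DDI2, the protease that cuts NFE2L1 free and a member of the preceding list, fell by 0.49 ± 0.12 and 0.43 ± 0.11.

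Of 13 interferon-axis regulators and antigen presentation genes, the partners of the immunoproteasome, 4 rose and 6 fell in Hs578T and 6 rose and 3 fell in MDA-MB-231 (medians -0.10 and 0.07). TAP2, a subunit of the peptide transporter encoded next to PSMB8, fell by 0.72 ± 0.05 and 0.33 ± 0.04 on the log2 scale, and TAP1, encoded next to PSMB9, fell in Hs578T by 0.37 ± 0.05 with -0.10 in MDA-MB-231. NLRC5, the activator of antigen presentation genes, rose in both (0.48 ± 0.06 and 0.49 ± 0.06). IRF1, which is known to bind the shared promoter of PSMB9 and TAP1, fell in Hs578T by 0.26 ± 0.05 and rose in MDA-MB-231 by 0.28 ± 0.05, and the difference of 0.54 ± 0.08 passed (adjusted p = 0.000194 by edgeR's quasi-likelihood test).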

How the data were processed

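Per the submitters' processing notes, reads were quantified with RSEM 1.2.12 on build hg19 after FastQC. The sources used here name no aligner and do not say whether strand was used. The expected counts deposited by the authors are RSEM's estimates of reads per gene, and those of all members were whole numbers in every library. The TPM values deposited by the authors are scaled for effective length and a fixed library total, and the effective lengths in the same files were not used.

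Groups were read from the sample titles. Expected counts were rounded to the nearest whole number (ties up), genes were kept by filterByExpr (minimum count 10, minimum total 15), scaled by TMM factors and fitted with 4 group means over all 8 libraries (4 residual degrees of freedom) in edgeR, and its quasi-likelihood test was adjusted by Benjamini-Hochberg over 14249 genes. The SE of a log2 change is its size divided by the root of the F statistic. TPM was used for levels and sums, with no test.

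The members, gene lists and sequences searched were chosen with earlier results of these data known. The text names members that passed, up to 10 per direction and comparison by size, all cutting subunits, the highest and lowest members, the rest by role, and up to 4 genes per other list by smallest p. Some genes of these lists, though in the fits and list counts, are not reported here.

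The alternatives are listed in the closing section. Rounding of ties to even was added after seeing the data, and ties up was kept after both had been compared. The fit was tested on simulated data. Promoters came from RefSeq on GRCh38.p14 and UTRs from GENCODE 29, joined by accession or symbol, with at least 30 bases of UTR. Depth, of 12905808 to 14216365 expected counts per library, covers counting error only. The tools were edgeR 4.0.16, DESeq2 1.42.0 and limma 3.58.1 in R 4.3.3, and pandas 2.3.3, numpy 2.4.6 and matplotlib 3.10.9 in Python 3.11.15.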

Additional observations from a re-analysis of the deposited data

Results flagged for a closer look

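The effect of GPX1 depletion differed between the lines, by edgeR's quasi-likelihood test of the difference itself with Benjamini-Hochberg adjustment, for 4 members. The effect in MDA-MB-231 minus that in Hs578T was 0.54 on the log2 scale for PSMB10 and 0.47 for PSMD1, and -0.53 for PSMG4 and -0.18 for PSME3. The differences of PSMB10 and PSMD1 passed under all 17 alternatives run, while that of PSMG4 was lost in 7 and that of PSME3 in 13 of them.

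Of the other genes reported, from lists of 12, 10, 8 and 13 genes, the same test gave a difference for 11. Among all tested genes, 6.32% were higher and 10.7% lower by this test. For these 11 the values were as follows. The difference was higher in MDA-MB-231 for IRF1 (0.54), TAP2 (0.38), TAP1 (0.27) and TAPBP (0.24). It was lower for STAT3 (-0.57), NFE2L2 (-0.49), ZFAND5 (-0.40), PAAF1 (-0.39), UCHL5 (-0.23), RAD23B (-0.18) and NFE2L1 (-0.15).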

How the results depend on the processing

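Other tests (DESeq2, limma-voom, limma on log2 of TPM plus 1 or plus 0.1), other scaling (DESeq2 size factors in edgeR), other filters on low counts (none, or 5 CPM in 2 libraries), fits of only the groups compared, a replicate block and fits without 1 library were tried. Rounding ties to even was added after seeing the data, since it moved the count of all genes that fell from 3154 to 3149 in Hs578T and from 3115 to 3116 in MDA-MB-231, and it changed no call of a member. Under every alternative, 4 of 10 rises and 17 of 20 falls in Hs578T, 4 of 6 rises and 11 of 18 falls in MDA-MB-231, and 19 of 25 and 7 of 10 calls between the controls were kept. The number that rose in Hs578T was 5 with only the groups compared, beside 24.11% of all genes tested in that fit. The number whose change differed between the lines (4, with 2 in each direction) was the least stable. Of the members that did not pass, 4 in Hs578T, 7 in MDA-MB-231, 17 in the difference and 11 between the controls passed under at least 1 alternative. The number that differed was 8 with DESeq2 size factors (7 higher, 1 lower), 13 with the stricter filter (13 higher, 0 lower), and on the TPM scales 5 were higher and 1 lower. On log2 of TPM plus 1 and plus 0.1, 8.03% and 6.51% of all tested genes were higher and 6.98% and 5.64% lower. DESeq2 gave 0 members lower and no filter 1, where 3.81% and 7.06% of all tested genes were lower. With each library left out, it ranged from 2 to 14, with 2 to 13 higher and 0 to 6 lower. The shares of all tested genes that were higher or lower also changed between the fits without a library. The range of member counts in those fits is therefore not a trait of the members alone. Between the controls, the log2 difference of PSMC5 was 0.11 on both TPM scales (adjusted p 0.0176 and 0.0183), that of HLA-B 0.0818 and 0.0819, and that of PSMD13 0.00977 and 0.0098 (adjusted p 0.833), each with the sign turned. A further 91, 48, 93 and 33 sign changes in Hs578T, MDA-MB-231, the difference and the controls were of members that passed neither as reported nor in the alternative, none with a reported change above 0.133, and were not counted as reversals.

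The replicate numbers are not known to pair libraries, and same-numbered libraries of a line did not deviate together (correlation -0.03 in Hs578T and 0.06 in MDA-MB-231). With a replicate block within each line (2 residual degrees of freedom), 10 rose and 20 fell in Hs578T, beside 28.62% and 22.11% of all tested genes. In MDA-MB-231, 6 rose and 19 fell, beside 20.52% and 21.86%. Between the controls 27 were higher and 9 lower, beside 40.81% and 36.63%. The change differed between the lines for 8 members, 4 in each direction, where 6.34% of all tested genes were higher and 10.58% lower. With 2 libraries a group and a biological coefficient of variation of 0.0341, small differences passed that may be technical.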
